A study of Mus musculus with 6 samples.

Results

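The genes described are those that make, sense and remove prostaglandins, taken as Ptgs1, Ptgs2, Ptges, Ptges2, Ptges3, Ptgis, Ptger1, Ptger2, Ptger4 and Hpgd. Each was followed through the probe sets that the array annotation assigns to it alone, which 8 of the 10 genes had, among 18193 genes with such a probe set on the array. No probe set is listed for Ptgs1 and both of Ptges3 are shared with the pseudogene Ptges3-ps, so these 2 genes are not analysed here. The 8 genes had 14 probe sets, of which 8 from 5 genes (Ptgs2, Ptges, Ptges2, Ptgis and Ptger1) were bright enough to be tested, and the 6 others, which include all those of Ptger2, Ptger4 and Hpgd, were not.

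The cells were As4.1, a mouse line from a kidney tumour in which the renin promoter drove the SV40 T antigen, so all groups share that transformed background and a single line. Cultures were treated with interleukin (which one, the labels leave out), with the oxidant hydrogen peroxide, or with vehicle. Neither doses nor times are stated in the labels. Each of the 3 groups held 2 separate cultures per the series description, each measured on 1 Affymetrix mouse array.

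Prostaglandins are lipid signals made when a phospholipase frees arachidonic acid from membranes, a cyclooxygenase (PTGS1 or the inducible PTGS2) turns it into prostaglandin H2, and a terminal synthase converts that into an end product. PTGES, PTGES2 and PTGES3 make prostaglandin E2 and PTGIS makes prostacyclin, and EP receptors such as PTGER1, PTGER2 and PTGER4 sense prostaglandin E2. HPGD inactivates prostaglandins. In the kidney, prostaglandin E2 and prostacyclin stimulate renin release from juxtaglomerular cells, mainly through receptors that raise cAMP, and PTGS2 of the neighbouring macula densa is part of that control.

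The promoter windows of Ptgs2 and Ptges are shown because these are the members with a probe set that rose under hydrogen peroxide, and Ptgs2 is the member that changed most under interleukin. Both come from RefSeq on build GRCm38.p6, in a table that held a window of 300 bases, 250 of them before the annotated start, for 8 of the 10 listed genes. Only the 250 bases before the start and, for Ptgs2, a site of 30 bases just after it are printed. In Ptgs2 the capitals mark a C/EBP palindrome (TTGCGCAA) and, after the annotated start, a CRE core (ACGTCA) overlapping an E-box (CACGTG) by 2 bases. Where transcription starts in these cells was not tested, so a site after the annotated start may still lie before the start in use. In Ptges they mark GC boxes (GGGCGG).
Ptgs2, chr1:150099781-150100030, plus strand: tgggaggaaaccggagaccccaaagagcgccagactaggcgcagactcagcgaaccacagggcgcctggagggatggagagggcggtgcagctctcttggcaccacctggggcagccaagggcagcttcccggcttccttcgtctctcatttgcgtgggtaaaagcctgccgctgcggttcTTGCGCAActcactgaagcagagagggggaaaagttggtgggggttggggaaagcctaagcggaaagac
Ptgs2 after the start, chr1:150100031-150100060, plus strand: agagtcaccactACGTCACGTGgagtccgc
Ptges, chr2:30903298-30903547, minus strand: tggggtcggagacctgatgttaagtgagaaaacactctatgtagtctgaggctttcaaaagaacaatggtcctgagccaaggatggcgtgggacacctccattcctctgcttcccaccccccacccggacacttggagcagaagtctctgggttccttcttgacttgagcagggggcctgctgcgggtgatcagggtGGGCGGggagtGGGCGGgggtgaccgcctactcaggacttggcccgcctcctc

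Searched on both strands, the C/EBP palindrome began at base 182 of the Ptgs2 window and was found in 60 of 32817 windows of mouse genes (0.183%), and in 1 of the 8 windows of the listed genes. The CRE core, the response element of cAMP signalling, began at base 263 and the E-box at base 267, and these occur in 7.51% and 7.15% of all windows. The GC box, an SP1-type motif, began at bases 198 and 209 of the Ptges window and at base 81 of the Ptgs2 window, and occurs in 35.6% of all windows. At both Ptges positions the letters also matched an EGR core (GGGCGGGG), found in 17.6% of all windows and in 4 of the 8 windows of the listed genes. A longer EGR motif (GCGGGGGCG, 2.91% of all windows) was in 0 of these 8. The letters of the NF-kappaB consensus (5.8% of all windows) were in neither of these windows. A match describes the letters and is no evidence of binding.

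The values are linear MAS5 signals that share 1 trimmed mean across arrays, with array medians of 192.2 to 232.3. Of the 10 mural and renin-lineage markers on the array 6 were bright enough to be tested. Pdgfrb and Acta2 were higher under interleukin than vehicle (log2 0.56 and 0.99, limma adjusted p = 0.00327 and 0.00305). Cspg4, Nr2f2, Tbx18 and Vim did not pass (log2 -0.63, -0.03, 0.24 and -0.03 by the brightest probe set). Under hydrogen peroxide none of the 6 passed, and Pdgfrb had a log2 change of -0.27. Rgs5, Des, Gja4 and Gja5 were dim, and renin is not analysed here. Beta-actin control probe sets, whose 3' over 5' signal reflects RNA quality, gave ratios of 1.46 and 1.55 with interleukin, 1.35 and 1.32 with hydrogen peroxide and 1.22 and 1.26 with vehicle. The same ratio for Tfrc was 3.05 and 3.95 with interleukin, 3.54 and 2.3 with hydrogen peroxide and 1.85 and 2.14 with vehicle, and that for Pcx was 2.3 and 2.46 with interleukin, 2.89 and 2.03 with hydrogen peroxide and 1.66 and 1.59 with vehicle. Both treated groups thus had higher ratios than vehicle for all 3 transcripts, while Gapdh lay at 0.825 to 0.873 on all arrays. The summed signal of 9 leukocyte and macrophage markers was 6585 to 7469 with interleukin, 4564 to 4735 with hydrogen peroxide and 3913 to 3931 with vehicle. Cd14 and Cd68 made up most of these sums and were both higher under interleukin than vehicle (log2 0.90 and 1.25, limma adjusted p = 0.0013 and 0.00851), as was Cd68 under hydrogen peroxide (1.04, 0.0419). Csf1r, also tested, did not pass by its brightest probe set under interleukin (log2 0.11, limma adjusted p = 0.658) or hydrogen peroxide (0.30, 0.489). A dimmer probe set of Csf1r was higher than vehicle under interleukin (1.37, 0.00664) and hydrogen peroxide (1.34, 0.0189). Another did not pass in either (1.22, 0.0709 and 1.37, 0.0806). Ptprc, Adgre1, Itgam, Cd3e, Lyz2 and Tyrobp were too dim to be tested, and no marker was listed at 0. Summed over 7 endothelial markers the signal was 8480 to 11939 with interleukin, 10902 to 11693 with hydrogen peroxide and 13542 to 15966 with vehicle, nearly all from Kdr, the only tested member, which was lower under interleukin than vehicle (log2 -0.60, limma adjusted p = 0.0194). The 9 epithelial and tubule markers summed to 1364 to 1570 with interleukin, 1089 to 1183 with hydrogen peroxide and 1473 to 1538 with vehicle, and neither of the 2 tested passed. The part of RNA quality or of these markers in the results below was not tested. In a culture, a change in RNA per cell and a change in the share of cells that express a gene cannot be told apart.

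Interleukin against vehicle asked how the cytokine changed these genes. The cyclooxygenase Ptgs2 rose about 9-fold by its brighter probe set, the prostacyclin synthase Ptgis rose 1.35-fold, and the tested probe sets of the prostaglandin E synthases and of Ptger1 did not pass. Groups were compared with limma on log2 signals over 22519 probe sets, with a threshold of 0.05 on the Benjamini-Hochberg adjusted p. Of the 8 tested prostaglandin probe sets 3 were higher, 0 were lower and 5 did not pass, where 16.1% of all tested probe sets passed, 7.58% higher and 8.52% lower. The median log2 change of the 8 was 0.44, against -0.02 over all tested probe sets. Both interleukin arrays lay above both vehicle arrays in 7 of the 8, where 27.6% of all tested probe sets did so, and below them in 0 (31.4%). Here and in the other comparisons the 8 come from 5 genes, with 3 from Ptges and 2 from Ptgs2, so they are not independent. By gene, 2 of the 5 (Ptgs2 and Ptgis) were called higher under interleukin by their brightest probe set, where 9.78% of all tested genes were.

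The brighter Ptgs2 probe set, 1417262_at, read 14145 and 10341 on the interleukin arrays, against 1465 and 1292 on the vehicle arrays. Its groups lay far apart, with the lower interleukin array above the higher vehicle array by several-fold. The log2 change was 3.14 ± 0.15 (SE, n = 2 per group), an 8.79-fold rise (limma adjusted p = 8.82e-07), and it ranked 42 from the top among the 22519 changes. The dimmer probe set, 1417263_at, read 4307 and 2462 with interleukin, against 646 and 855 with vehicle, and its 2 interleukin arrays differed more from each other. Its log2 change was 2.13 ± 0.25 (SE, n = 2 per group, 4.38-fold, limma adjusted p = 0.000373), with a 95% interval of 1.57 to 2.69 against 2.80 to 3.48 for the brighter one. Both calls held in each alternative in which the probe set was tested, and over the fits that each left out 1 array the log2 change lay at 2.91 to 3.36 and 1.73 to 2.54.

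Ptgis, which makes prostacyclin, read 7683 and 8138 with interleukin, against 5502 and 6230 with vehicle. The groups did not overlap but lay close, and the log2 change was 0.43 ± 0.11 (SE, n = 2 per group, limma adjusted p = 0.023). That call was lost without vehicle array 1 (adjusted p = 0.191), vehicle array 2 (0.0563) or interleukin array 2 (0.0829), each of which leaves 1 array in a compared group, and without a trend on signal (0.102).

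Ptges, the inducible prostaglandin E synthase that often acts with PTGS2, has 3 probe sets, and in each both interleukin arrays lay above both vehicle arrays. The brightest, 1449450_at, read 1757 and 1533 with interleukin, against 1250 and 1455 with vehicle. The 3 log2 changes were 0.28, 0.45 and 0.48, with adjusted p of 0.236, 0.16 and 0.153 in limma, so none passed. The widest 95% interval among them, that of 1449449_at, ran from 0.01 to 0.94. Ptges2, a constitutive prostaglandin E synthase, read 1022 and 1386 with interleukin, against 1141 and 983 with vehicle. Its groups overlapped and its log2 change of 0.17 (95% interval -0.24 to 0.58) did not pass.

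**Figure D1:**
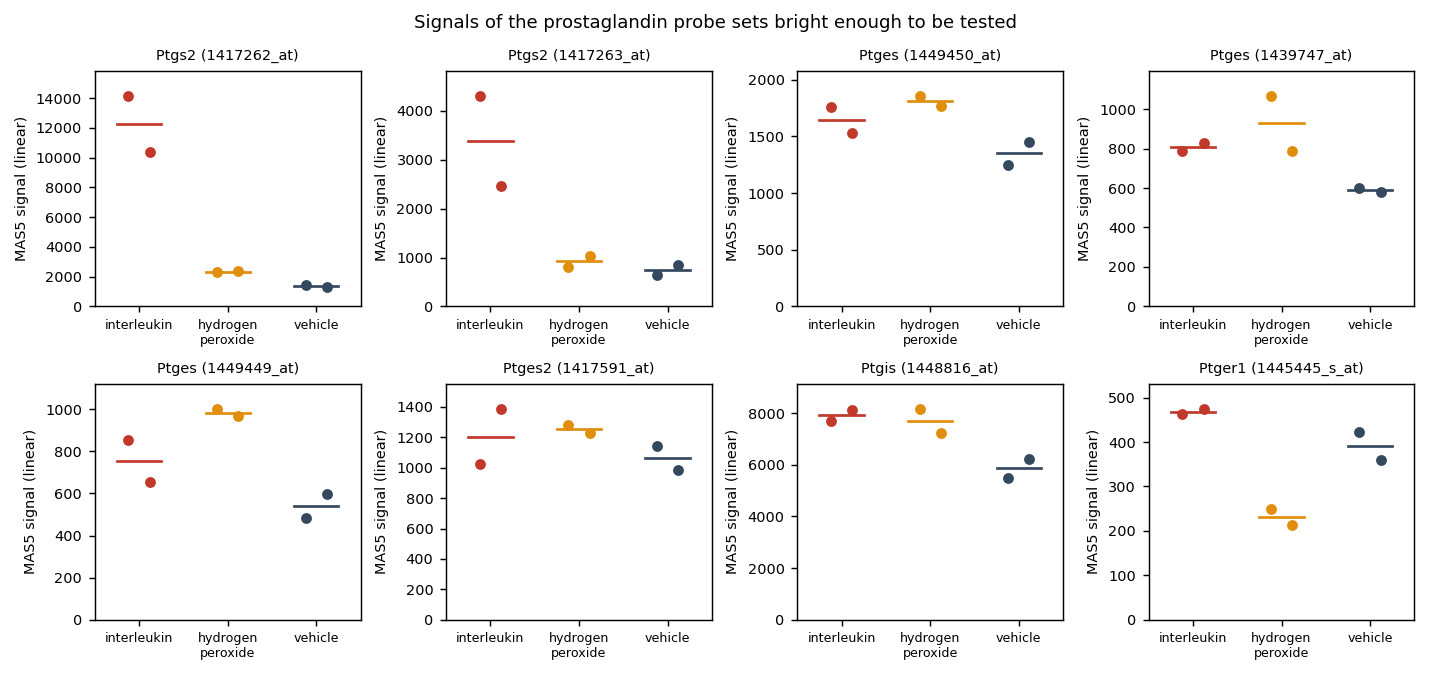
MAS5 signal on a linear axis from 0 for each of the 8 tested prostaglandin probe sets, by group, with a point for each array and a bar for the mean of 2 arrays. The interleukin points stand far above the others in both Ptgs2 panels, and in Ptger1 the hydrogen peroxide points (249.7 and 213.8) are the lowest.

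Hydrogen peroxide against vehicle asked how an oxidant changed the same genes. Ptgs2 rose 1.70-fold by its brighter probe set and Ptges 1.83-fold by 1 of its 3, and the remaining tested probe sets did not pass. These are 2 of 8 higher and 0 of 8 lower, where 5.69% of all tested probe sets passed, 3.05% higher and 2.65% lower. The median log2 change of the 8 was 0.41, against 0.02 over all tested probe sets. Both hydrogen peroxide arrays lay above both vehicle arrays in 6 of the 8 (29.8% of all tested probe sets) and below them in 1 (25.6%). Both comparisons with vehicle use the same vehicle arrays, so their values are not independent.

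Ptgs2 at 1417262_at read 2340 and 2346 with hydrogen peroxide, against 1465 and 1292 with vehicle. The hydrogen peroxide arrays nearly coincided and lay above both vehicle arrays. The log2 change was 0.77 ± 0.15 (SE, n = 2 per group, limma adjusted p = 0.0183). At 1417263_at the signals were 815 and 1025 with hydrogen peroxide, against 646 and 855 with vehicle. These groups overlapped, and the log2 change of 0.30 (95% interval -0.27 to 0.86) did not pass.

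The 3 probe sets of Ptges each had both hydrogen peroxide arrays above both vehicle arrays. At 1449449_at the signals were 1001 and 967 with hydrogen peroxide, against 484 and 597 with vehicle, which gave a log2 difference of 0.87 ± 0.21 (n = 2 each, SE, limma adjusted p = 0.0373). The probe sets 1439747_at and 1449450_at changed by 0.64 (95% interval 0.19 to 1.08) and 0.43 (0.09 to 0.76) and did not pass (adjusted p = 0.0926 and 0.125 in limma). Each of the calls on Ptgs2 and Ptges was lost without hydrogen peroxide array 1, hydrogen peroxide array 2, vehicle array 1 or vehicle array 2, with adjusted p from 0.0687 to 0.145 for Ptgs2 and from 0.105 to 0.218 for Ptges. Their log2 changes then lay at 0.68 to 0.86 and 0.72 to 1.02. Without a trend on signal limma called 0 of the 8, with adjusted p of 0.12 and 0.107 for these probe sets, and 6 of 8 at an unadjusted p under 0.05. With the replicate number as a block Ptges had an adjusted p of 0.0564.

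Ptgis read 8154 and 7214 with hydrogen peroxide, against 5502 and 6230 with vehicle. The groups did not overlap, and the log2 change of 0.39 (95% interval 0.15 to 0.63) did not pass (limma adjusted p = 0.0662). Ptges2 read 1283 and 1227 with hydrogen peroxide, against 1141 and 983 with vehicle, and its log2 change of 0.24 did not pass (95% interval -0.16 to 0.65).

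Among the listed EP receptors only Ptger1, which encodes the EP1 receptor that signals through calcium, had a tested probe set. It read 463.5 and 474 with interleukin and 249.7 and 213.8 with hydrogen peroxide, against 422.5 and 359.8 with vehicle. The hydrogen peroxide arrays were the lowest and the interleukin arrays the highest, with no overlap between any groups. Against vehicle the log2 change was 0.27 (95% interval -0.33 to 0.86) under interleukin and -0.75 (-1.35 to -0.16) under hydrogen peroxide, and neither passed (adjusted p = 0.552 and 0.131 in limma).

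Interleukin against hydrogen peroxide tested directly whether the treatments differed. Ptgs2 was higher with interleukin in both probe sets and Ptger1 in its tested probe set, and the synthases did not pass. These are 3 of 8 probe sets higher and 0 lower, where 8.82% of all tested probe sets passed, 4.95% higher and 3.87% lower. Both interleukin arrays lay above both hydrogen peroxide arrays in 3 of the 8 (21.8% of all tested probe sets) and below them in 2 (30.0%). For Ptgs2 the log2 differences were 2.37 ± 0.15 and 1.83 ± 0.25 (SE, n = 2 per group, 5.16-fold and 3.56-fold, limma adjusted p = 7.93e-06 and 0.00132). Its order was therefore interleukin above hydrogen peroxide above vehicle, in which hydrogen peroxide and vehicle differed past the threshold in 1 of 2 probe sets.

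Ptger1 was 2.03-fold higher with interleukin than with hydrogen peroxide (log2 1.02 ± 0.27, SE, n = 2 per group, limma adjusted p = 0.0416). That call did not hold without interleukin array 1 (adjusted p = 0.1) or 2 (0.131), hydrogen peroxide array 1 (0.0664) or 2 (0.175), or vehicle array 1 (0.0802) or 2 (0.0754). It was also lost with no filter on signal (0.104), with only the 4 arrays compared (0.0813) and with the replicate number as a block (0.0568). No difference of a synthase between the treatments passed. The log2 differences were -0.40 to -0.14 for Ptges, -0.08 for Ptges2 (95% interval -0.48 to 0.33) and 0.04 for Ptgis (-0.20 to 0.29). In Ptges 1449450_at and 1449449_at both interleukin arrays lay below both hydrogen peroxide arrays, and in 1439747_at they overlapped. Among the Ptges intervals, that of 1449449_at ran from -0.86 to 0.06.

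**Figure D2:**
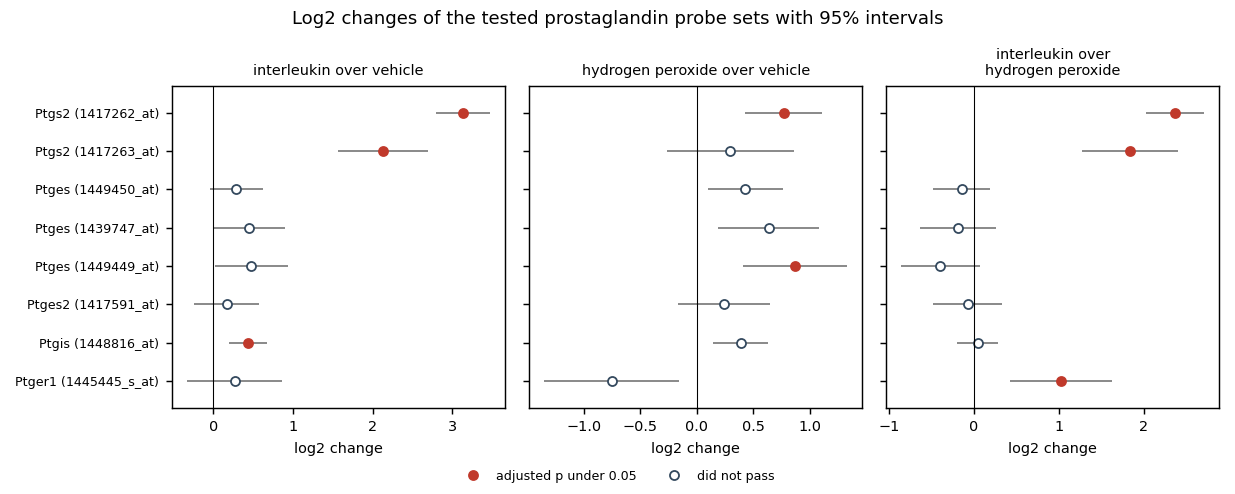
Log2 change of each tested prostaglandin probe set (rows) in the 3 comparisons (panels, each with its own axis), with bars for the 95% interval of limma and filled points for an adjusted p under 0.05. Ptgs2 passes in all panels by 1417262_at, while Ptger1 passes in the panel of interleukin over hydrogen peroxide.

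The 6 remaining probe sets lay below the filter, a mean log2 signal equal to 193.7 on the linear scale, and their signals carry no test here. Ptger2 and Ptger4 encode EP2 and EP4, the receptors that raise cAMP. Ptger2 read 7.4 and 75.2 with interleukin and 7.2 and 44.2 with hydrogen peroxide, against 73.7 and 46.3 with vehicle. Ptger4 at 1424208_at read 16.3 and 56.8 with interleukin and 83.6 and 116.1 with hydrogen peroxide, against 167.2 and 7.5 with vehicle. The spread between the vehicle arrays of that probe set was as wide as any difference between groups. Ptger4 at 1421073_a_at read 52.6 and 46.1 with interleukin and 4.2 and 10.5 with hydrogen peroxide, against 33.6 and 21.7 with vehicle. Here no groups overlapped, all at dim signal.

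Hpgd, the dehydrogenase that inactivates prostaglandins, read 35.4 to 105.6 over all 6 arrays at its s_at probe set and 4.2 to 14.4 at the other, with the groups overlapping. The dimmer Ptger1 probe set, 1450491_at, read 298 and 124.9 with interleukin and 113.6 and 25.2 with hydrogen peroxide, against 408.7 and 272.1 with vehicle. As in the tested Ptger1 probe set, both hydrogen peroxide arrays were below both vehicle arrays. Under interleukin the 2 probe sets differed. The interleukin arrays of 1450491_at overlapped vehicle (log2 -0.79), while those of the tested probe set lay above vehicle (0.27). With no filter on signal none of the 6 passed in any comparison, and the lowest adjusted p was 0.13, for Ptger1 under hydrogen peroxide (unadjusted p = 0.00546, log2 -2.64). No detection call was used, so these signals do not say whether the transcripts were present.

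**Figure D3:**
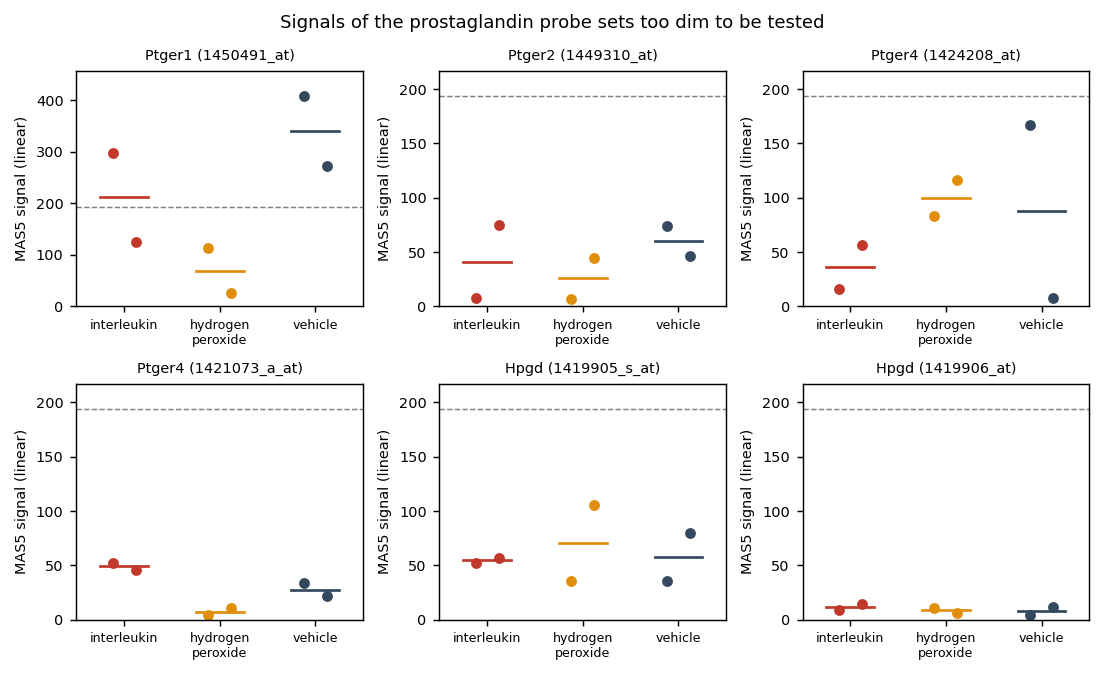
MAS5 signal on a linear axis from 0 for the 6 prostaglandin probe sets that were too dim to be tested, by group, with a point for each array and a bar for the mean. The dashed line marks 193.7, the lowest geometric mean signal tested, and only 3 arrays of Ptger1, 1 with interleukin and both with vehicle, lie above it.

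Other genes of the pathway were taken from 6 lists with 66 members, of which 44 could be tested through their brightest probe sets. Under interleukin 6 of them were higher, 3 lower and 35 did not pass, where 16.4% of all tested genes passed, 9.78% higher and 6.61% lower. Under hydrogen peroxide 5 were higher, 0 lower and 39 did not pass, where 6.99% of all tested genes passed, 4.08% higher and 2.91% lower. With interleukin against hydrogen peroxide 7 were higher, 4 lower and 33 did not pass, where 10.4% of all tested genes passed, 6.3% higher and 4.06% lower. The median log2 change of the 44 was 0.24 under interleukin (0.03 over all tested genes) and -0.01 under hydrogen peroxide (0.06 over all), and 0.11 for interleukin against hydrogen peroxide (-0.04 over all). The counts include Pla2g2e, and for both treatments against vehicle Ltc4s, whose vehicle signals averaged under the filter, so that they were tested because of the arrays where they are high. Without a trend on signal the calls on 3 of the 9 genes under interleukin, 4 of the 5 under hydrogen peroxide (all but Egr1) and 9 of the 11 between the treatments (all but Cebpd and Egr1) were lost.

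Upstream, Pla2g4a, the cytosolic phospholipase that frees arachidonic acid, read 5098 and 3635 with interleukin, against 1616 and 1503 with vehicle, and it rose 2.76-fold. Its log2 change of 1.47 ± 0.16 (SE, n = 2 per group, limma adjusted p = 0.000237) held with each array left out, and 0.54 under hydrogen peroxide did not pass (0.0794). By brightest probe sets it was the only gene of the 10 tested in the arachidonate-release list that was higher under interleukin, and none was lower. A dimmer probe set of Pla2g6 was lower under interleukin (log2 -1.13, limma adjusted p = 0.0452).

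Of the secreted phospholipases, Pla2g12a rose under hydrogen peroxide. It read 1551 and 1536 with hydrogen peroxide, against 754 and 819 with vehicle. The log2 difference was 0.97 ± 0.19 (n = 2 each, SE, limma adjusted p = 0.0161). That call was lost without hydrogen peroxide array 1 or 2 or vehicle array 1 or 2, with adjusted p from 0.0635 to 0.115. Pla2g2e, also secreted, read 209 and 126 with interleukin and 395 and 617 with hydrogen peroxide, against 111 and 136 with vehicle. The hydrogen peroxide arrays were the highest, and it passed the filter only through them, so its difference is given as these values with no test. With no filter it did not pass against vehicle (limma adjusted p = 0.0579) or between the treatments (0.0955). Between the treatments Pla2g4a was higher with interleukin (log2 0.92, limma adjusted p = 0.0059), a call lost without a trend on signal (0.066). Pla2g12a was lower with interleukin (-0.90, 0.014), a call lost without interleukin array 2, hydrogen peroxide array 1 or hydrogen peroxide array 2 (0.0571 to 0.0798).

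In transport and breakdown, Ptgr1, the reductase that inactivates prostaglandin and leukotriene metabolites, rose under both treatments. It read 7212 and 7235 with interleukin and 5614 and 4927 with hydrogen peroxide, against 3255 and 3366 with vehicle. The log2 changes were 1.13 ± 0.11 and 0.67 ± 0.11 (SE, n = 2 per group, limma adjusted p = 9.6e-05 and 0.00741). The call under hydrogen peroxide was lost without hydrogen peroxide array 1 (0.0732), vehicle array 1 (0.0761) or vehicle array 2 (0.0626). The transporter Slco3a1, which carries prostaglandins, differed between the treatments, higher with interleukin, in all 3 of its tested probe sets. The log2 differences were 0.70, 0.89 and 1.004. By its brightest probe set it read 1811 and 2622 with interleukin, against 1363 and 1322 with hydrogen peroxide (limma adjusted p = 0.0338), and 2009 and 2146 with vehicle. The interleukin arrays thus overlapped vehicle (log2 0.07), and both hydrogen peroxide arrays lay below it (-0.63, limma adjusted p = 0.0647), while a dimmer probe set of Slco3a1 was lower under hydrogen peroxide than vehicle (-1.05, 0.0283). The call between the treatments was lost in each fit without an array other than interleukin array 1, with adjusted p from 0.0624 to 0.158. Ptgr1 was also higher with interleukin than with hydrogen peroxide (log2 0.46, limma adjusted p = 0.0266), which was lost without each array other than hydrogen peroxide array 1 (0.0545 to 0.217). Slco2a1, Abcc4 and Ptgr2 did not pass in any comparison.

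Of the other prostanoid synthases only Akr1b8, Cbr1 and Cbr3 could be tested, and none passed. Of 5 tested receptors, the prostacyclin receptor Ptgir read 896 and 596 with interleukin and 637 and 694 with hydrogen peroxide, against 540 and 515 with vehicle. Its log2 changes of 0.47 and 0.33 did not pass (adjusted p = 0.203 and 0.439 in limma), and neither did those of Ptger3, Ptgfr, Tbxa2r and Ppard.

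In the leukotriene branch, Ltc4s, the synthase of leukotriene C4, read higher under both treatments than with vehicle. Its vehicle signals averaged under the filter, so it was tested only through its treated arrays. With no filter on signal both calls against vehicle were kept. It read 503 and 535 with interleukin and 489 and 729 with hydrogen peroxide, against 86.5 and 201.6 with vehicle. The log2 changes were 1.97 ± 0.39 and 2.18 ± 0.39 (SE, n = 2 per group, limma adjusted p = 0.00737 and 0.012). The vehicle arrays lay far apart at dim signal, and leaving out vehicle array 1 gave log2 changes of 1.36 and 1.57, while leaving out vehicle array 2 gave 2.58 and 2.79. The call under hydrogen peroxide was lost without hydrogen peroxide array 2 (0.0684) or vehicle array 1 (0.0695). Ggt5, a gamma-glutamyl transferase that acts on leukotriene C4, was higher with interleukin (10341 and 11441) than with hydrogen peroxide (7730 and 6456), by 0.62 on the log2 scale (limma adjusted p = 0.00602, or 0.0659 without hydrogen peroxide array 2). Alox5, which starts that branch, was too dim to be tested.

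**Figure D4:**
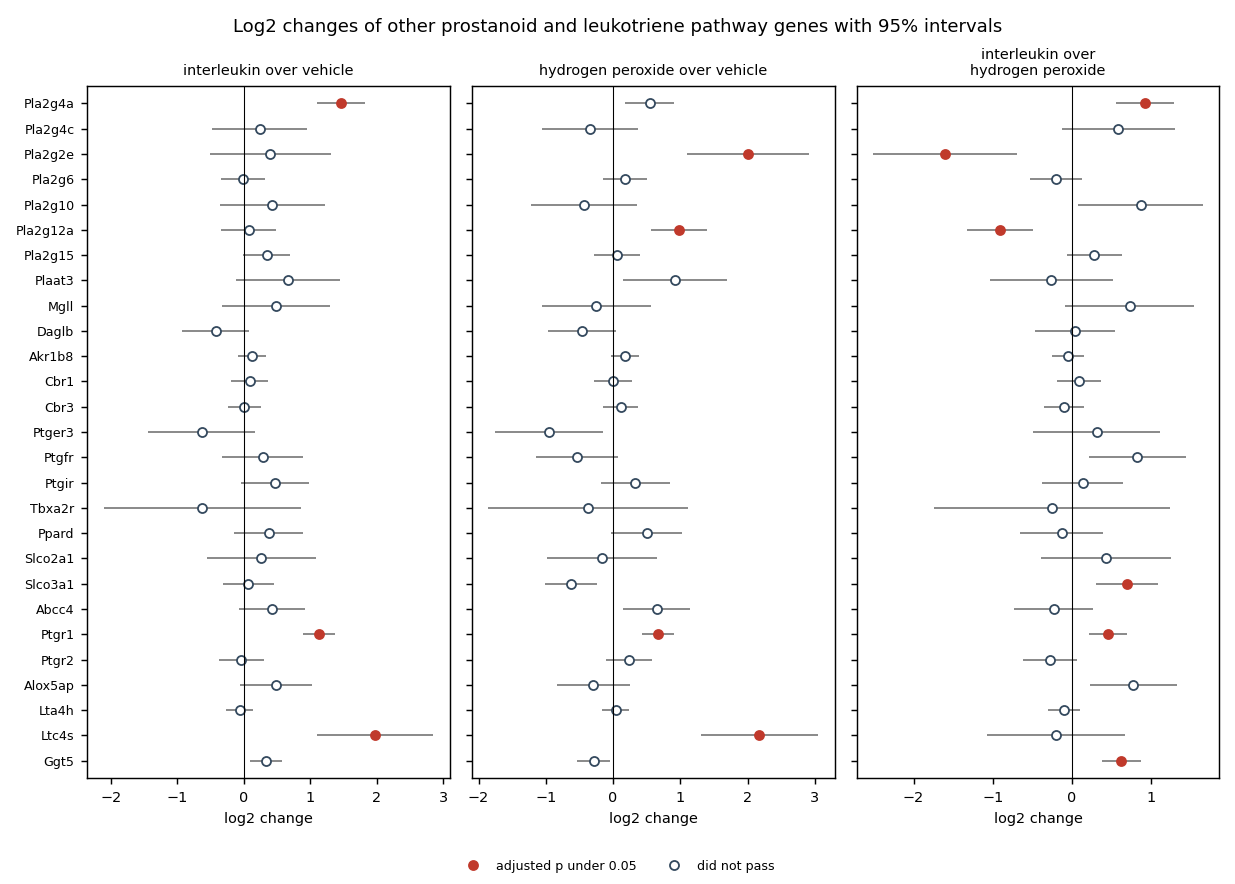
Log2 change of 27 other prostanoid and leukotriene pathway genes (rows, brightest probe set) in the 3 comparisons (panels), with bars for the 95% interval of limma and filled points for an adjusted p under 0.05. Pla2g4a, Ptgr1 and Ltc4s pass under interleukin, while Pla2g12a, Ptgr1 and Ltc4s pass under hydrogen peroxide. The filled points of Pla2g2e belong to a gene let through the filter only by its hydrogen peroxide arrays. Those of Ltc4s belong to a gene let through only by its treated arrays.

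A list of 17 tested regulators of Ptgs2 transcription and mRNA decay had, by brightest probe sets, 3 genes higher and 3 lower under interleukin. Under hydrogen peroxide 1 was higher. Of all tested genes 9.78% were higher and 6.61% lower under interleukin, and 4.08% were higher under hydrogen peroxide. Some dimmer probe sets passed under interleukin where the brightest did not. They were lower for Creb1 (log2 -1.05 and -1.65, limma adjusted p = 0.0304 and 0.0259) and Mapk14 (-0.77, 0.0306) and higher for Khsrp (0.66, 0.0161). Between the treatments 6.3% of all tested genes were higher and 4.06% lower with interleukin. In the list Cebpd, Mapkapk2 and Anxa1 were higher and Egr1 and Nr3c1 lower. Of these the calls on Mapkapk2 (0.51, limma adjusted p = 0.0426), Nr3c1 (-0.42, 0.0429) and Anxa1 (0.52, 0.0186) were each lost in fits without 1 array. For Anxa1 it was lost without interleukin array 1 or either hydrogen peroxide array (0.0593 to 0.109), and for Nr3c1 without each array other than interleukin array 2 (0.0845 to 0.233) and for Mapkapk2 without each array other than hydrogen peroxide array 1 (0.0765 to 0.3). Cebpd, a C/EBP factor, read 28305 and 24862 with interleukin and 2476 and 2195 with hydrogen peroxide, against 2998 and 2897 with vehicle. It rose under interleukin by 3.17 ± 0.11 (log2, SE, n = 2 per group, limma adjusted p = 1.55e-07), and -0.34 under hydrogen peroxide did not pass (0.109). Cebpb, which binds the same kind of site, did not pass by its brightest probe set (log2 0.27 under interleukin, limma adjusted p = 0.0615), while its dimmer probe set was higher under interleukin (0.65, 0.00291). Egr1, an immediate-early factor, read 8491 and 8209 with hydrogen peroxide, against 3153 and 3107 with vehicle, a log2 rise of 1.42 ± 0.11 (SE, n = 2 per group, limma adjusted p = 0.00019), and 0.24 under interleukin did not pass.

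Anxa1, an annexin that restrains phospholipase A2, read 23375 and 18344 with interleukin, against 12108 and 10905 with vehicle, and rose by 0.85 ± 0.12 (log2, SE, n = 2 per group, limma adjusted p = 0.000816). Nr3c1, the glucocorticoid receptor, through which Ptgs2 is repressed, read 4924 and 5934 with interleukin, against 9595 and 9752 with vehicle, and fell by 0.84 ± 0.11 (log2, SE, n = 2 per group, limma adjusted p = 0.00073). The mRNA-binding proteins Elavl1 and Hnrnpd fell by 0.34 and 0.31 (log2), and Zfp36l1, which promotes mRNA decay, rose by 0.45 (limma adjusted p = 0.0456, 0.0323 and 0.0328). The calls on Elavl1 and Hnrnpd were lost without any single interleukin or vehicle array, with adjusted p from 0.062 to 0.243 and from 0.0648 to 0.216. That on Elavl1 was also lost with the replicate block (0.0545), 75th percentile centring (0.0551) or no filter (0.0831), and with no filter those on Hnrnpd (0.0691) and Zfp36l1 (0.0701) were lost too. Of the other tested probe sets of these genes, 1 of Elavl1 also fell (by 0.44, limma adjusted p = 0.00827), and that of Hnrnpd had a log2 change of 0.12 and did not pass. The call on Zfp36l1 was lost without interleukin array 1, vehicle array 1 or vehicle array 2 (0.14 to 0.146).

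The genes with a pattern most like that of Ptgs2, by the distance over 6 arrays between log2 signals taken relative to each gene's own vehicle mean, were Iigp1, Tnc, Zbp1, Cxcl10 and Phyh, out of 10891 compared. Their distances were 0.18 for Iigp1, an interferon-inducible GTPase, 0.32 for the matrix protein Tnc, 0.40 for the nucleic acid sensor Zbp1, 0.58 for the chemokine Cxcl10 and 0.63 for Phyh, a peroxisomal hydroxylase. Iigp1 read 11996 and 9414 with interleukin and 2044 and 1971 with hydrogen peroxide, against 1179 and 1217 with vehicle. It shared with Ptgs2 the higher interleukin array 1 and the intermediate hydrogen peroxide arrays. For Ptger1 the most alike were Rnase4, Rhou, Gm2a, Sybu and Tm7sf2, at distances of 0.27 to 0.31. All these values come from the same 6 arrays, and likeness over them is a description.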

How the data were processed

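RNA of 6 As4.1 cultures was measured on Affymetrix mouse arrays. The deposited values are linear intensities (MAS5 signals) that the authors made per the submitters' processing notes, with the MAS5 version not given in the sources used here. Every array had the same mean, 1500.01, once 2% was trimmed from both ends, and the number of arrays limits the precision. Of 45101 probe sets 64 controls were left out. Log2 signals with no pseudocount were tested for the 22519 probe sets with a mean at or above the median, in limma 3.58.1 under R 4.3.3, where 1 model held the 6 arrays and the prior variance followed signal (eBayes, trend). P-values were adjusted by Benjamini-Hochberg. Gene symbols are those of the array annotation after updating by RefSeq gene identifiers (34741 of 34945 probe sets with 1 symbol matched). Named were all probe sets of the members, called pathway genes, up to 4 of smallest p per pathway list, and the 5 genes most like Ptgs2 and like Ptger1, the other member of largest change. A gene was represented by its brightest probe set. Members and lists were chosen with earlier results of these data known. The listed genes Akr1b3, Akr1b7, Nfkb1, Pla2g4b and Ptgr3 are not analysed here. The fit was tested on simulated data. Alternatives were other normalizations, a pseudocount of 32, other filters, variance models or arrays, and a replicate block.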

Additional observations from a re-analysis of the deposited data

How the results depend on the processing

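In these 3 comparisons, 15 alternatives were run, and the calls on both Ptgs2 probe sets for interleukin against vehicle and against hydrogen peroxide held in each alternative that tested them. Of 342 alternative values of the prostaglandin probe sets 313 kept direction and side of the threshold, 25 lost a call and 4 changed sign, all 4 of them in values that had not passed. The cause of these moves was not tested, except that leaving out an array leaves 1 in its group and that a filter changes how many probe sets are tested. Of the tested probe sets 3627 were called for interleukin against vehicle, 1282 for hydrogen peroxide against vehicle and 1987 for interleukin against hydrogen peroxide. Without a trend on signal the counts were 1783, 57 and 716. With no filter 762 were called for hydrogen peroxide against vehicle, and 825 when probe sets able to match more than 1 transcript were dropped. With 1 array left out they lay at 1554 to 3583 for interleukin against vehicle, 235 to 1751 for hydrogen peroxide against vehicle and 839 to 1919 for interleukin against hydrogen peroxide.

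Of the 8 prostaglandin probe sets, 2 were called for hydrogen peroxide against vehicle. The number was 1 with no filter, 1 with the stricter filter (3 tested), 1 with the replicate block and 0 without a trend on signal (limma, 6 at an unadjusted p under 0.05). With 1 array left out it lay at 0 to 2 (3 to 6 at an unadjusted p under 0.05). For interleukin against hydrogen peroxide 1 of 3 was called with the stricter filter. The replicate numbers share no stated batch, and differences between arrays 1 and 2 correlated at -0.129 to 0.107 between groups, so they are not taken to pair samples. The replicate block gave 3342, 1170 and 1756 calls.

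Values that had not passed changed sign as follows (log2, each array left out in turn given as lowest to highest). Under interleukin, Ptges2 lay at -0.052 to 0.387, Slco3a1 at -0.198 to 0.337 and Cbr3 at -0.079 to 0.099, below 0 without interleukin array 2, and for Cbr3 also -0.049 without vehicle array 1. Under hydrogen peroxide, Lta4h lay at -0.0127 to 0.087, below 0 without hydrogen peroxide array 1 and at -0.0135 after 75th percentile centring. Cbr1 lay at -0.085 to 0.083, above 0 without hydrogen peroxide array 2 or vehicle array 2 (0.0788). For interleukin against hydrogen peroxide, Ptges2 lay at -0.296 to 0.14 and Ptgir at -0.16 to 0.43, both turned without interleukin array 1. Ptges (1439747_at) lay at -0.404 to 0.034 and Ppard at -0.474 to 0.22, both turned without hydrogen peroxide array 1. Ptgis lay at -0.044 to 0.132, Ltc4s at -0.49 to 0.085 and Ptger3 at -0.067 to 0.691, each turned without hydrogen peroxide array 2.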
